A study of Homo sapiens with 2 samples.

Results

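The centromere and kinetochore genes measured after SUB1 knockdown were 10 genes, CENPA, CENPB, CENPF, CENPH, CENPM, CENPN, NDC80, NUF2, SPC24 and SPC25. They were taken by name, from a list chosen with earlier results of these data known. Every gene probe on the arrays that carried 1 of these names was used, which gave 15 of 41000 probes. The 10 genes were among 19218 genes that passed the filter on dim probes. All 15 probes passed it and read well above background in both channels of both arrays. The cells were PC3, an established prostate cancer line derived from a metastasis. They received either a non-targeting control duplex (Non-T siRNA) or 1 of 2 duplexes against SUB1 (SUB1 siRNA 1 and SUB1 siRNA 2), a gene for a transcriptional coactivator that binds single-stranded DNA, in a pair of transfections 24 h apart, and were harvested 72 h after the first. Each duplex was measured on 1 dual-colour Agilent whole-genome array, both on the same slide, with Non-T siRNA RNA in Cy3 and SUB1 siRNA RNA in Cy5. No dyes were swapped, so what the duplex did to a signal and what the dye did cannot be told apart, and whether both arrays carried the same Non-T siRNA extract is not given in the sources used here.

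The centromere is the stretch of a chromosome on which the kinetochore is built, and the kinetochore is the protein assembly that holds chromosomes on spindle microtubules in mitosis. Nucleosomes with the histone variant CENP-A mark the site, a constitutive network of inner proteins sits on them through the cell cycle, and the Ndc80 complex of the outer layer grips the microtubule. Many of these genes are transcribed mainly in G2 and M phase, so in cultured tumour cells their RNA levels are known to follow the share of dividing cells.

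All 10 genes had a lower signal in SUB1 siRNA cells than in Non-T siRNA cells with both duplexes. Ratios below are log2 of Cy5 over Cy3 for the brightest probe of a gene, so that -1 is a 2-fold lower signal. The median over the 10 genes was -0.84 with SUB1 siRNA 1 and -1.03 with SUB1 siRNA 2, against 0.024 with either duplex over all 19218 genes. At least 2-fold lower signals were found for 3 of the 10 with SUB1 siRNA 1 (CENPF, CENPH and NUF2), where 0.609% of all genes were that low, and for 6 of the 10 with SUB1 siRNA 2 (CENPA, CENPF, CENPN, NUF2, SPC24 and SPC25), where 1.07% were. CENPF and NUF2 were at least 2-fold lower with both duplexes, as were 0.14% of all genes, and no gene of the 10 was 2-fold higher with either. Ratios below 0 with both duplexes were found for 30.3% of all genes. Ranked from the lowest mean ratio upward, 6 of the 10 stood among the first 100 of the 19218 genes and 8 among the first 500. Because the 10 genes were chosen with earlier results of these data known, these counts and ranks describe them and test nothing.

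With 1 array for each duplex, the only test over arrays was of the mean of both log2 ratios against 0, with limma across all genes. None of the 10 passed an adjusted p of 0.05 in limma, a level that 0.0052% of all genes (SUB1 alone) reached in the lower direction. At an unadjusted p of 0.05 in limma all 10 passed, against 9.9% of all genes in that direction. Standard errors of the mean ratio ran from 0.0945 to 0.195 (n = 2 arrays). They are moderated, that is, limma drew each variance partly from all genes, so they do not measure the spread of the 2 ratios alone. The limma adjusted p was 0.114 for 8 of the genes, 0.142 for CENPM and 0.217 for CENPB. The members were not tested as a group.

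SUB1 itself, the targeted gene, read 8669 in Non-T siRNA cells and 881 in SUB1 siRNA 1 cells on the one array, and 7586 and 791 on the other, in normalised intensity. The signal left was 10.2% and 10.4% of that in Non-T siRNA cells (mean log2 ratio lowest of all genes, limma adjusted p = 0.0255), and its 4 probes lay between -3.75 and -1.81 with SUB1 siRNA 1 and between -3.50 and -1.57 with SUB1 siRNA 2. Of genes that PC3 cells are known to express (KRT8, KRT18, EPCAM, VIM, CD44), 5 of 5 were well above background with every probe. Of genes typical of secretory prostate cells, TMPRSS2 was not above background, and KLK2 and KLK3 each had 1 of 3 probes above it. Of the markers of other cells, PTPRC was at background with both probes, while COL1A1 and PECAM1 each had 1 of 1 probe above it. These were gene signals in a whole culture, in which fewer cells of a kind and less RNA per cell cannot be told apart. Among genes of cycling cells, TOP2A, a topoisomerase of G2 and mitosis, had ratios of -0.84 and -1.13, the proliferation marker MKI67 -0.46 and -0.32, and the replication clamp PCNA -0.02 and -0.41 with SUB1 siRNA 1 and 2. Their part in the ratios of the 10 genes was not tested. Of the reference genes, GAPDH lay at 0.01 and -0.07, TBP at 0.11 and 0.16, HPRT1 at -0.38 and -0.33, and ACTB at 0.75 and 0.37.

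**Figure D1:**
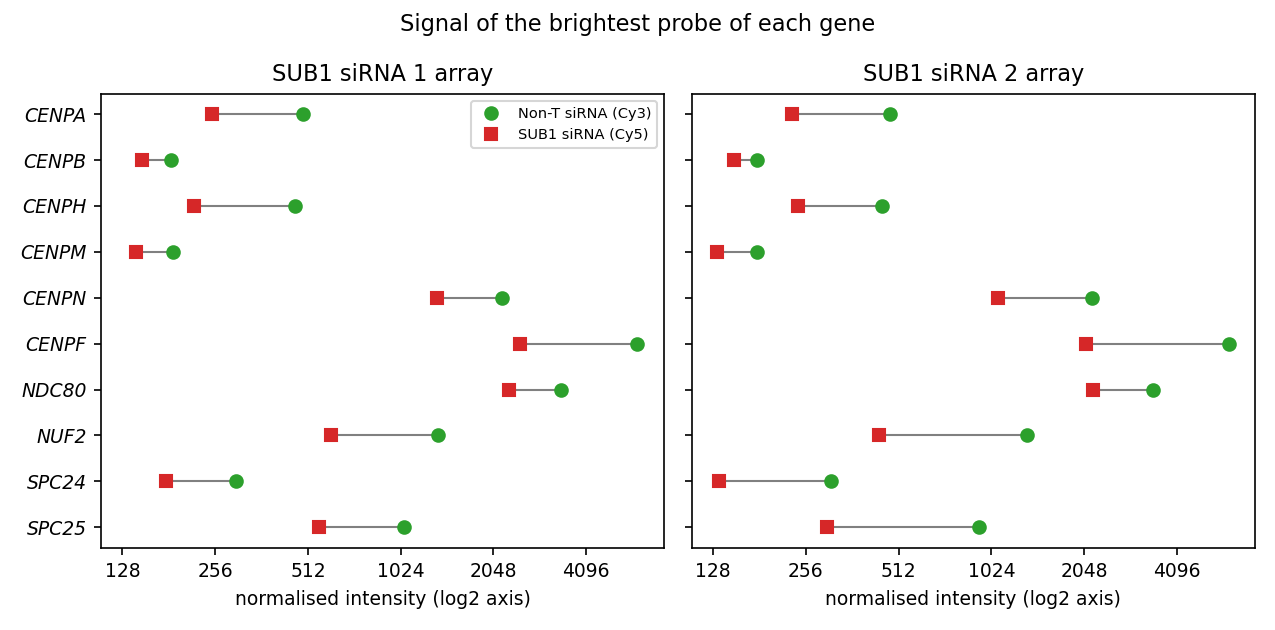
Normalised intensity of the brightest probe of each of the 10 genes in Non-T siRNA cells (Cy3, circles) and SUB1 siRNA cells (Cy5, squares), 1 panel for each array, on a log2 axis. Every square lies to the left of its circle; positions of different genes are different probes and cannot be ranked as levels.

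The promoters of these genes, which the choice by name did not use, were read for elements of cell cycle genes. RefSeq promoters (GRCh38.p14, 250 bases before to 50 after the start) were at hand for 8 of the 10, all but CENPH and CENPM. The letters searched were those of the cell cycle genes homology region, or CHR (TTTGAA or TTCGAA on either strand), an element bound at many G2 and M phase genes by the MuvB core of the DREAM complex, CCAAT on either strand, the box bound by NF-Y, and the E2F letters TTGGCGC or TTCGCGC on either strand. TTCGAA reads the same on both strands and was counted once, and in these 8 promoters no match overlapped another. CHR letters were present in 6 of the 8 promoters (75.0%), those of CENPA, CENPF, CENPN, NDC80, NUF2 and SPC25, and in 16.4% of 35116 promoters of the same length. All 6 had a match within 50 bases of the start, a window set after the matches had been seen, and 5.01% of all promoters had one there. CCAAT stood in 5 of the 8 (62.5%), against 34.6% of all promoters, and the E2F letters in 0 of 8, against 5.06%. All promoters here include those of genes that were not kept on the arrays, so the shares differ from those among kept genes. Of the kept genes with a promoter, 1203 had CHR letters and 9309 did not. For CCAAT these numbers were 3892 and 6620, and for the E2F letters 893 and 9619.

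The stretches below run from 130 bases before to 25 bases from the start, 5′ to 3′ on the strand of the gene, with CHR and CCAAT letters of either orientation in capitals (ATTGG is CCAAT and TTCAAA is TTTGAA on the opposite strand). CENPF, NUF2 and SPC25 are shown as the genes with the lowest ratios, CENPA, CENPN and NDC80 for the CHR letters at their starts, and CENPB as the gene with ratios nearest 0, which has none of the elements. They lie at chr1:214603065-214603219 (+ strand, CENPF), chr1:163321824-163321978 (+, NUF2), chr2:168890406-168890560 (-, SPC25), chr2:26785926-26786080 (+, CENPA), chr16:81007084-81007238 (+, CENPN), chr18:2571427-2571581 (+, NDC80) and chr20:3786716-3786870 (-, CENPB) of GRCh38.p14.
CENPF: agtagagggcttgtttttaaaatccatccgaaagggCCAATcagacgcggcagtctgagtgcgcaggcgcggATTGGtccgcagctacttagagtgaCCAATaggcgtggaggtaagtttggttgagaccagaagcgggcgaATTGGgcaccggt
NUF2: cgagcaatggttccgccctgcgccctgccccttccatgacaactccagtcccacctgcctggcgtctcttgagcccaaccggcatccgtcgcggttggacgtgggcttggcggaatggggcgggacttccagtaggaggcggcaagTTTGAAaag
SPC25: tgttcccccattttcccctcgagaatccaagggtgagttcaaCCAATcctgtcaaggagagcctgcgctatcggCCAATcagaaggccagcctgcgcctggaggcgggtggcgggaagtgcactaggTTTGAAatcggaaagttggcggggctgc
CENPA: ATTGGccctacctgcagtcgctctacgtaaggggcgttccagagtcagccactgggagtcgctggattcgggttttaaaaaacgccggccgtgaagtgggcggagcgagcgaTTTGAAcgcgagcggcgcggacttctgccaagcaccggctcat
CENPN: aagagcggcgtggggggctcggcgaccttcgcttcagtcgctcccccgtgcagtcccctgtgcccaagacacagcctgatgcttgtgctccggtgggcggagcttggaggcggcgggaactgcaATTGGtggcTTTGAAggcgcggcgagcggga
NDC80: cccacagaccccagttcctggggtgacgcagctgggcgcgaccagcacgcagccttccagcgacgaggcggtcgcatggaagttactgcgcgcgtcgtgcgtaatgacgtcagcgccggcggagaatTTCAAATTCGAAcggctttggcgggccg
CENPB: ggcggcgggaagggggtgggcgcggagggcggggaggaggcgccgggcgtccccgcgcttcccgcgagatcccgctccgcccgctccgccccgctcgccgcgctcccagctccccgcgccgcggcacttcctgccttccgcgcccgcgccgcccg

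CENPF carried 4 CCAAT matches, on alternating strands, and its CHR letters begin at base 41 after the start, beyond the stretch printed. In SPC25, a pair of CCAAT boxes in the same orientation, at 88 and 56 bases before the start, precedes CHR letters that run across the start. CHR letters begin 18 bases before the start in CENPA, at base 4 in CENPN, where a CCAAT match lies 4 bases upstream, and at base 17 in NUF2. NDC80 has both forms side by side, TTTGAA on the opposite strand from 3 bases before the start and TTCGAA directly after it. The CENPB promoter was 82.0% G and C over its 300 bases, the other 7 between 54.3% and 62.3%, and the median promoter 58.7%. Matches are letters in a window and are not shown to be bound or used in these cells. SPC24, whose promoter is not printed, has no CHR letters and had ratios of -0.75 and -1.21 with SUB1 siRNA 1 and 2. NDC80, with both forms, had -0.56 and -0.65, and a link between letters and ratios was not tested in these genes. Among the genes kept that had a promoter at hand, 339 had CHR letters within 50 bases of the start. Their median ratios were -0.075 and -0.078 with SUB1 siRNA 1 and 2, and the 10173 without had 0.017 and 0.015. The 339 include CENPA, CENPF, CENPN, NDC80, NUF2 and SPC25, from whose matches the window was set. With CHR letters counted anywhere in the promoter the medians were 0.0030 and 0.0040, against 0.016 and 0.014 without.

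**Figure D2:**
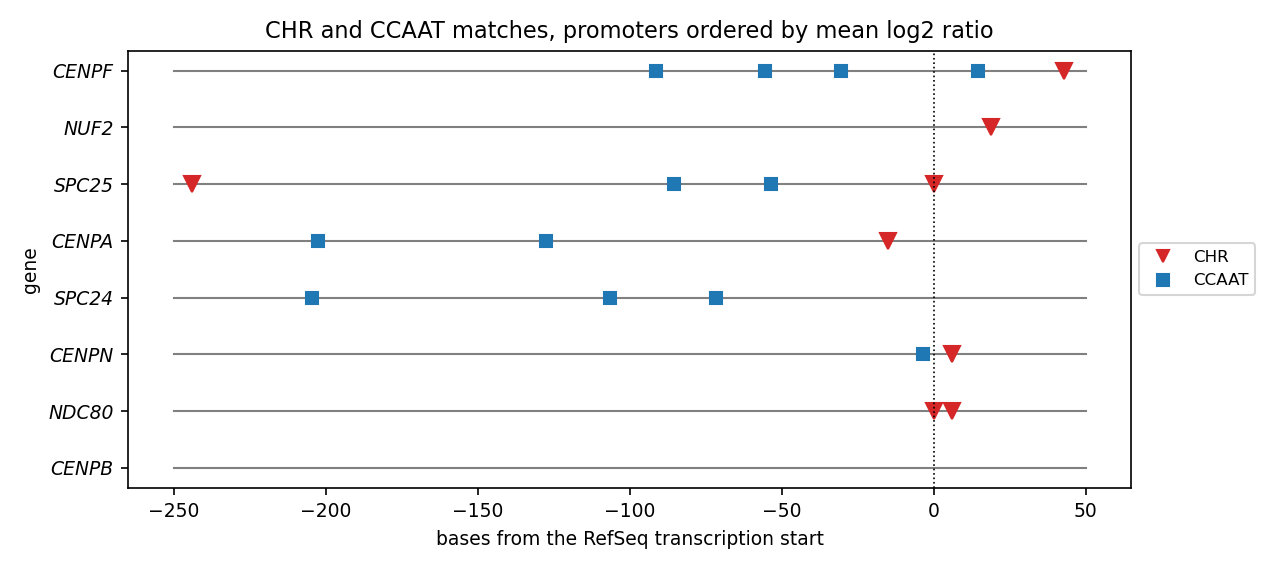
Position of CHR letters (triangles) and CCAAT (squares) on either strand in the RefSeq promoters of 8 genes, in bases from the transcription start (dotted line), with genes ordered from the lowest mean log2 ratio (top) to the highest. In 6 of the 8 a triangle lies within 50 bases of the start; SPC24 has CCAAT matches alone and CENPB has neither.

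At the centromere itself, the 2 chromatin proteins differed. CENPA, the histone H3 variant that marks the active centromere, read 493 in Non-T siRNA cells and 251 in SUB1 siRNA 1 cells, and 480.01 and 232 on the SUB1 siRNA 2 array. Its ratios of -0.97 and -1.05 were within 0.08 of each other, with a mean of -1.01 ± 0.096 (moderated SE from limma, n = 2 arrays). CENPB, which binds a short box in the alpha satellite DNA of centromeres, read 184 against 148 and 177 against 149.92, or ratios of -0.31 and -0.24. These were the ratios nearest 0 of the 10 genes, and the second CENPB probe gave 0.11 and 0.04, so the probes of CENPB differed in sign. The CENPA probe lies at chr2:26870418-26870477 of hg18, the build named in the array files. The brighter CENPB probe lies at chr20:3713394-3713453 and the other at chr20:3714984-3715043.

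Among the 3 inner kinetochore genes, all subunits of the constitutive centromere-associated network, CENPH and CENPN were the lower ones. CENPH, which works in a subcomplex with CENP-I, CENP-K and CENP-M, read 463 in Non-T siRNA and 218 in SUB1 siRNA 1 cells, and 452 and 242 on the SUB1 siRNA 2 array. Its ratios were -1.09 and -0.90, and it passed 2-fold with SUB1 siRNA 1 alone. CENPN, which recognises the CENP-A nucleosome together with CENP-L, read 2178 against 1342 and 2177.5 against 1078, or ratios of -0.70 and -1.01. CENPM read 187 against 141 and 178 against 132, or ratios of -0.41 and -0.43, so that 75.5% and 74.3% of its Non-T siRNA signal was left. The median of the 3 genes was -0.70 with SUB1 siRNA 1 and -0.90 with SUB1 siRNA 2. Of the CENPN probes, the brightest has coordinates of chr16:79611372-79613909, and the others chr16:79598381-79603092 and chr16:79620196-79620255. The CENPM probe, at chr22:40671235-40671902, also spans more of the genome than the 60 bases of most probes, as a probe over an exon junction does, and the CENPH probe lies at chr5:68541405-68541464.

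CENPF, a large coiled-coil protein that accumulates in G2 and joins the outer kinetochore in mitosis, had the lowest mean ratio of the 10 and stood at rank 11 of all genes. It read 5989 in Non-T siRNA cells and 2506 in SUB1 siRNA 1 cells, and 6059.9 and 2076 on the SUB1 siRNA 2 array, which left 41.8% and 34.3% of the signal. The ratios were -1.26 and -1.55, with a mean of -1.40 ± 0.116 (moderated SE from limma, n = 2 arrays). Its bright probe lies at chr1:212903931-212903990 and a dim one, at chr1:212892862-212892921, gave -0.59 and -0.54.

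The 4 subunits of the Ndc80 complex had a median of -0.84 with SUB1 siRNA 1 and -1.40 with SUB1 siRNA 2. NUF2, which pairs with NDC80 to form the microtubule-binding end, read 1354 in Non-T siRNA and 609 in SUB1 siRNA 1 cells, and 1338 and 442 on the SUB1 siRNA 2 array. Its ratios of -1.15 and -1.60 put it at rank 14 of all genes by the mean. SPC25 read 1052 against 556 and 937 against 300.41, with ratios of -0.92 and -1.64. SPC24, its partner at the end of the complex that docks on the inner kinetochore, read 299 against 177 and 309 against 133, with ratios of -0.75 and -1.21. NDC80, the subunit that gives the complex its name, had the ratios nearest 0 of the 4. It read 3395 against 2306 and 3442 against 2196, with ratios of -0.56 and -0.65, so 67.9% and 63.8% of its signal was left where NUF2 kept 45.0% and 33.0%. The probes lie at chr1:161591768-161591827 (NUF2), chr2:169436202-169436261 (SPC25), chr19:11117994-11118053 (SPC24) and chr18:2600798-2600857 (NDC80, brightest) of hg18.

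**Figure D3:**
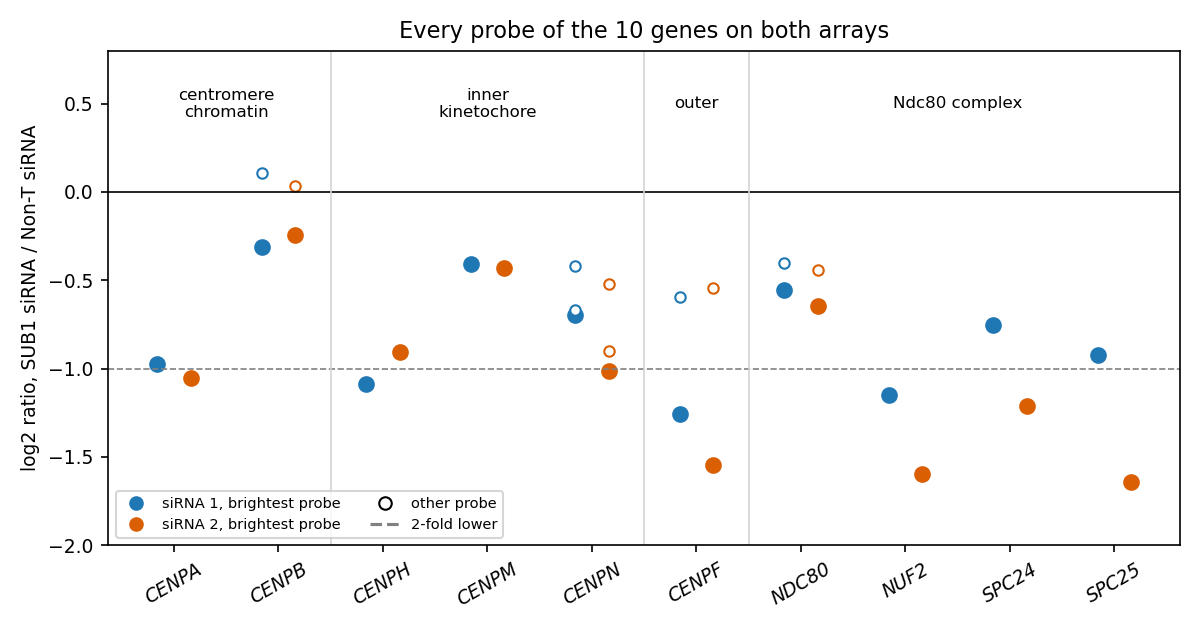
Log2 of Cy5 (SUB1 siRNA) over Cy3 (Non-T siRNA) for all 15 probes of the 10 genes, with SUB1 siRNA 1 in blue and SUB1 siRNA 2 in orange, filled for the brightest probe of a gene and open for its other probes; the dashed line is 2-fold lower. Of the 15 probes, 14 lie below 0 with both duplexes, and the exception is the second CENPB probe; there are no replicate arrays to give an error bar.

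SUB1 siRNA 2 gave a lower ratio than SUB1 siRNA 1 for 8 of the 10 genes, and a higher one for CENPH (by 0.18) and CENPB (by 0.07), although the sign of the small differences of CENPA and CENPB depended on the processing. The median difference was -0.19, against -0.0022 over all genes, of which 50.4% were lower with SUB1 siRNA 2. The differences that stood out were those of SPC25 (-0.72), SPC24 (-0.46), NUF2 (-0.45), CENPN (-0.32) and CENPF (-0.29), while CENPA, CENPB, CENPM and NDC80 each differed by less than 0.1 between duplexes. The CENPF difference was that of its brightest probe alone. Its dim probe gave -0.59 with SUB1 siRNA 1 and -0.54 with SUB1 siRNA 2, and with the mean over its probes the CENPF difference was -0.12. Each gene has 1 spot per probe on an array. Among 209 probes printed 10 times, spots of a probe varied with a median SD of 0.0781 on the SUB1 siRNA 1 array and 0.0741 on the SUB1 siRNA 2 array, which gives 0.108 for the difference between single spots. That covers spot-to-spot error alone, so the difference between duplexes was not tested. After the arrays were brought to the same distribution of intensities, the Non-T siRNA signal of the 10 genes differed between arrays by -0.17 to 0.05 on the log2 scale. The SUB1 siRNA signal differed by -0.89 to 0.15. For SPC25, the Cy5 signal was lower by 0.89 and the Cy3 signal by 0.17 on the SUB1 siRNA 2 array.

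Among the 5 other probes of CENPB, CENPF, CENPN and NDC80, 4 were below 0 with both duplexes and all were nearer 0 than the brightest probe of their gene. The dim CENPF probe had a Cy3 mean signal of 147 and 131 in scanner units. An offset of 50 added to every background-corrected signal pulls ratios of such probes toward 0 by construction, so the ratios were also computed without it, an alternative chosen after seeing the data. The dim CENPF probe then gave -1.14 and -1.16, where the bright one hardly moved. CENPN had ratios of -0.42 to -0.70 over its 3 probes with SUB1 siRNA 1 and of -0.52 to -1.01 with SUB1 siRNA 2, a range of 0.28 and 0.496. Without the offset the range over those probes was 0.0396 and 0.0349. The probes of NDC80 also drew together, from 0.157 to 0.0965 apart with SUB1 siRNA 1 and from 0.206 to 0.133 with SUB1 siRNA 2, whereas the probes of CENPB moved apart, from 0.416 to 0.587 and from 0.279 to 0.417. In the Feature Extraction processed signals the dim CENPF probe was at -1.51 and -2.03, past the bright probe, and the probes of NDC80 lay 0.42 and 0.699 apart. Of the genes with 1 probe, SPC24 moved most without the offset, to -0.94 and -1.65, and CENPM went to -0.57 and -0.65. Without the offset 4 of the 10 genes, CENPA, CENPF, CENPH and NUF2, were at least 2-fold lower with both duplexes, and with median centring in place of loess none were. Of all genes, 0.963% and 1.68% were that low with SUB1 siRNA 1 and 2 without the offset, and 0.291% and 0.526% with median centring. The share that was that low with both duplexes is not given for these settings, so the counts cannot be set against it. The brightest probe of every one of the 10 stayed below 0 under each processing tried.

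**Figure D4:**
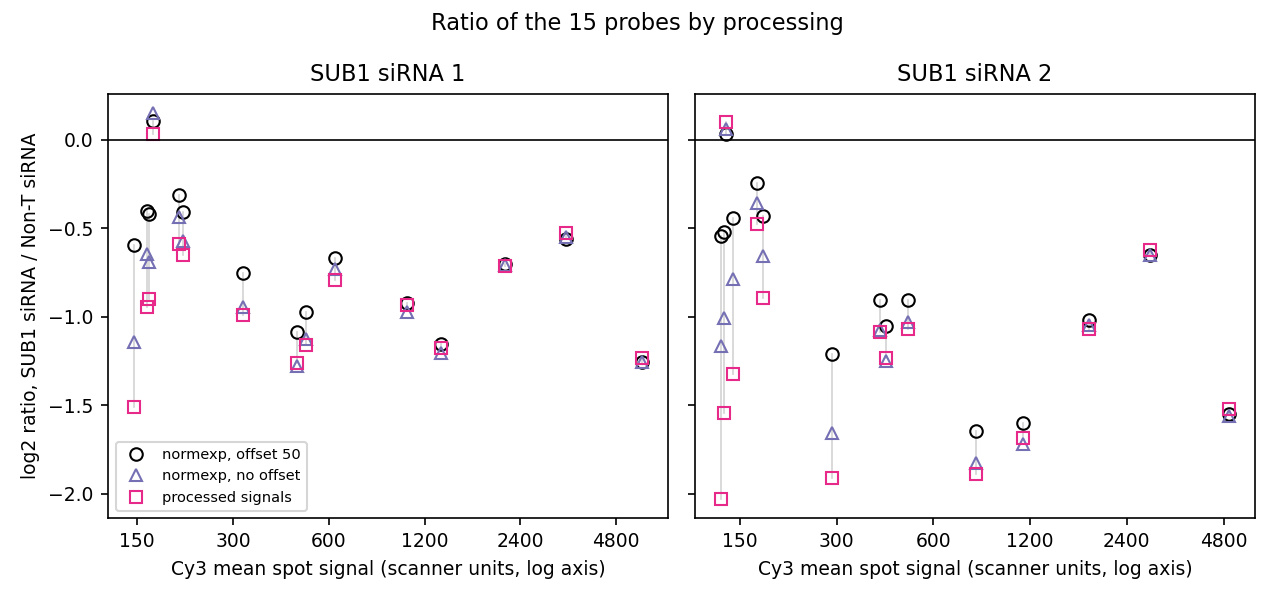
Log2 ratio of the 15 probes against the Cy3 mean spot signal of the probe (scanner units, log axis) for SUB1 siRNA 1 (left) and SUB1 siRNA 2 (right), from normexp with an offset of 50 (circles), normexp without an offset (triangles) and Feature Extraction processed signals (squares), joined per probe. The symbols of bright probes nearly coincide, and those of most probes under 400 spread downward, while the second CENPB probe stays near 0.

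Genes of other centromere and kinetochore proteins had medians below 0 as well, nearer to 0 than those of the 10 genes. A list of 32 further genes, all of them measured, had a median of -0.44 with SUB1 siRNA 1 and -0.58 with SUB1 siRNA 2. Like the 10 genes, the list was chosen with earlier results of these data known, and the difference between them was not tested. Below 0 with both duplexes were 26 of the 32, against 30.3% of all genes. At least 2-fold lower were 1 gene with SUB1 siRNA 1 (CENPQ), 3 with SUB1 siRNA 2 (OIP5, SKA3 and ZWINT) and 0 with both. Of all genes, 0.609%, 1.07% and 0.14% were that low. None of the 32 passed an adjusted p of 0.05 in limma. At an unadjusted p of 0.05 in limma 23 passed, all lower, against 9.9% of all genes in that direction. Among the 500 of 19218 genes with the lowest mean ratios were 12 of the 32. In CHR letters within 50 bases of the start the list stood between the 10 genes and all promoters, with 7 of 26 (26.9%) against 5.01% of all promoters. It held CCAAT in 57.7%, against 34.6%, and the E2F letters in 8 of 26, against 5.06%.

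By complex, the 3 Ska proteins, which track microtubules beside the Ndc80 complex, had medians of -0.44 and -0.64. The checkpoint scaffold of ZW10, ZWILCH and KNTC1 with SPDL1, which recruits dynein, had -0.29 and -0.45. The Mis12 complex with KNL1, on which the Ndc80 complex docks, stood nearest to 0 with 5 genes at medians of -0.00090 and -0.17. Medians of the Ndc80 complex were -0.84 and -1.40, and this difference was not tested. The 5 genes were not alike, with mean ratios from -0.62 for KNL1 to 0.11 for NSL1. The 13 further inner kinetochore genes had medians of -0.51 and -0.54.

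CENPQ, an inner kinetochore subunit, had the lowest mean of the list and differed most between duplexes, with -1.89 for SUB1 siRNA 1 and -0.64 for SUB1 siRNA 2. Its probe was printed 10 times, and the SD over its spots was 0.0956 (10 spots) and 0.0915 (9 spots), beside a difference of 1.25 between duplexes; that spread covers technical error within an array alone, and the difference was not tested. Its change sat in the Cy5 channel, which was 1.24 higher on the SUB1 siRNA 2 array. Next came SKA3 (-0.91 and -1.14), the kinetochore motor CENPE (-0.84 and -0.92) and ZWINT (-0.52 and -1.16), which binds KNL1. OIP5, part of the Mis18 complex, was at -0.61 and -1.001. At the other end were CENPT, an inner protein that recruits the Ndc80 complex, at 0.06 and 0.24, NSL1 of the Mis12 complex at 0.12 and 0.10, and CENPC, which links CENP-A nucleosomes to the Mis12 complex, at 0.04 and -0.01.

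**Figure D5:**
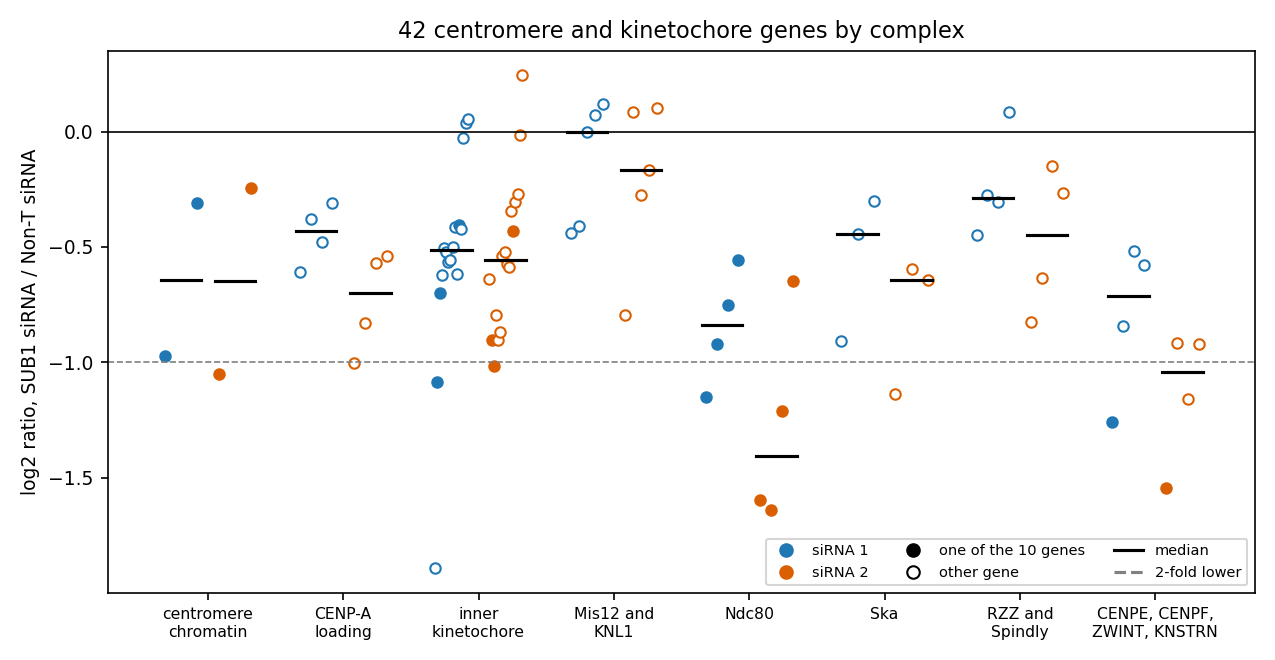
Log2 ratio of 42 centromere and kinetochore genes by complex, SUB1 siRNA 1 in blue and SUB1 siRNA 2 in orange, with the 10 genes filled, the 32 others open, a black bar at the median of each column and a dashed line at 2-fold lower. The Ndc80 genes have the lowest median with SUB1 siRNA 2, at -1.40, and the Mis12 column has medians of -0.00090 and -0.17; the open point at -1.89 is CENPQ with SUB1 siRNA 1.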

How the data were processed

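RNA of PC3 cells was measured on 2 dual-colour Agilent arrays, 1 for each SUB1 siRNA. The authors scanned them with Feature Extraction 9.5.1.1 and deposited the Cy3 and Cy5 intensity per spot before normalization and processed signals with dye correction; a table deposited by the authors holds loess-normalized log2 ratios, whose values correlated at 0.972 and 0.98 with ratios recomputed from the spots. The authors' log10 ratios and p-values per spot were not used. Probe coordinates are on hg18 (NCBI36), named in the array files; gene models of that build were not used here.

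Mean spot signals were corrected by normexp (offset 50) in limma 3.58.1 under R 4.3.3 and normalized by loess (span 0.3) within each array. For the normalised intensities of a channel, the mean log2 intensities of both arrays were then given the same distribution (Aquantile in limma). That step left the ratios unchanged. Outlier spots (112 and 100) were left out. Probes passed with a fraction of 0.5 or more of spots well above background in either channel, on both arrays (25673 of 41000), and the probe with the highest mean intensity stood for its gene. Names came from RefSeq for 13129 of 19218 genes and from the array files for 6089. A changed gene had an absolute log2 ratio of at least 1, the rule of the study's methods. The mean of both ratios was tested against 0 (lmFit, eBayes, Benjamini-Hochberg over all genes); the spread of the control does not enter it. The number of arrays limits the precision. The fit was tested on simulated data.

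The 10 genes, the list of 32 other kinetochore genes and the motifs were chosen with earlier results of these data known. Named genes were the 10 with every probe, SUB1, the 4 lowest and 3 highest of the list by mean ratio with any 2-fold lower with both duplexes, and marker and reference genes. OIP5 and the mean ratio of KNL1 were added after their values were seen. Some genes that this rule or the lists hold are not reported by name here. Alternatives varied background correction, offset, spot signal, normalization, probe choice, filter, outlier spots and variance prior.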

Additional observations from a re-analysis of the deposited data

Results flagged for a closer look

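Of the genes whose ratios are given above, 2 had ratios of opposite sign with the SUB1 siRNAs, and for both the difference between duplexes was not tested. CENPC was 0.050 lower with SUB1 siRNA 2 than with SUB1 siRNA 1 (difference in log2 ratio -0.050), and GAPDH was lower by the same comparison with a difference of -0.081.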

How the results depend on the processing

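The medians of the 10 genes and of the list kept their sign under the alternatives. The small difference between duplexes changed sign for CENPA (-0.08, against 0.0090 with median spot signals and 0.0057 in the authors' table). It also changed sign for CENPB (0.07, against -0.0011 with the mean over all probes). All 10 genes stayed below 0 under each alternative run. With Feature Extraction processed signals, 4 of the 10 genes were at least 2-fold lower with both duplexes, and medians were -0.96 and -1.16. The list of 32 had 4, 8 and 3 such genes (SUB1 siRNA 1, 2, both) and a median of -0.79 with SUB1 siRNA 2. Of all genes, 1.55% and 2.47% were that low with SUB1 siRNA 1 and 2 in this setting. Normexp without an offset, chosen after seeing the data, gave 4 of the 10 with both and medians of -0.96 and -1.16. For the list it gave 2, 8 and 1 and a median of -0.73 with SUB1 siRNA 2. There 0.963% and 1.68% of all genes were at least 2-fold lower with SUB1 siRNA 1 and 2. With median centring, 0 of the 10 were 2-fold lower with SUB1 siRNA 1 and 0 with both, and medians were -0.67 and -0.83. The list had 0 with SUB1 siRNA 2 and medians of -0.27 and -0.45. This setting put the median of all genes at 0.127 and 0.119, and 0.291% and 0.526% of them were at least 2-fold lower. The mean over all probes gave 1 of the 10 with both. Without the filter on dim probes, 4 of the 10 and 2 of the list passed an adjusted p of 0.05 in limma, among 129 of 30482 genes tested, against 1 of 19218 with the filter; the lowest adjusted p of the 10 ranged over the alternatives from 0.0469 to 0.175. The cause of these shifts was not tested, except that an offset shrinks ratios of dim probes by construction. The share of 2-fold changed genes that were lower was 74.5% and 63.5% (SUB1 siRNA 1 and 2), but 63.3% and 52.6% in the authors' table, 47.6% and 46.6% without the offset, 29.0% and 27.5% with median centring and 27.7% and 32.3% with processed signals. No paired analysis was possible because each duplex had 1 array, and for the same reason no replicate could be left out. Signal over background limits the ratios of the 7 probes with Cy3 signals under 400.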
